A study of Mus musculus with 14 samples.

Results

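In activated muscle stem cells (ASCs), 270 of 4101 MyoD regions (6.58%) were labelled as lying in an exon, in an untranslated region (UTR) or just downstream of a gene. The regions came from the peak lists of 3 ASC MyoD ChIP-seq libraries, in which peaks are stretches where the antibody recovered more reads than background. Peaks that overlapped by at least 1 bp were merged, and each region took the label of its peak with the highest score. Each peak's score restates its p-value as a log10 multiplied by minus 10, so that higher scores are stronger calls, and the lowest score listed is 50.0. Of the 270 regions, 166 were labelled exon, 85 3' UTR, 15 5' UTR and 4 downstream, which in these lists means within 300 bp past the gene end. The remaining regions were labelled promoter (916, within 3 kb of a transcription start), intron (1437) or distal intergenic (1478). The regions were thus chosen by the labels and scores of the ASC MyoD peaks, and the number, labels, scores and recurrence of the regions are given as descriptions without a test. Tests were run on the peaks of each library, with libraries as the replicates.

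The study profiled MyoD and MyoG in ASCs and in quiescent muscle stem cells (QSCs), with 3 libraries in each of 4 groups. All mice had the wild-type genotype and carried mito-Dendra2, a fluorescent mitochondrial protein, under a Pax7-Cre(ERT2) driver, so that only Pax7-expressing stem cells and their progeny were marked. All received tamoxifen at 75 mg/kg daily for 5 days. After 2 more days, 50 µL of 1.2% BaCl2 was injected into one tibialis anterior and saline into the opposite one, and cells were sorted 2 days later. ASCs (CD34-, Dendra2+, DAPI-) came from the injured muscle and QSCs (CD34+, Dendra2+, DAPI-) from the saline-injected muscle. State, muscle and CD34 gate therefore cannot be told apart. The study calls the libraries of a group biological replicates. The age of the mice and which animals or pools gave each library are not given, and p-values measure the spread between these libraries. Peak lists hold no expression values, and the cell labels could not be checked against markers. Read depth is unknown.

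MyoD is a basic helix-loop-helix transcription factor that pairs with E proteins and recognizes E-boxes, short DNA motifs of the form CANNTG. It commits cells to the muscle lineage and is produced when quiescent muscle stem cells activate after injury. Most study of its binding concerns promoters and enhancers, but an E-box may also lie within transcribed sequence, and a gene model may overlap the start of another gene.

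Start windows of the RefSeq promoter table (GRCm38.p6, the mm10 build) run from 250 bp before to 50 bp after a start. Sequence could be shown where such a window overlapped one of the regions. This held for 4 of the 270 regions, and 196 of the 270 had a gene with an entry in the table. The sequences below are the stretches of 30 bases that hold CAGCTG, an E-box that reads the same on both strands, with CAGCTG in capitals. They are shown because 1 of these windows lies in the strongest 5' UTR region, that of Aldh3b1, an aldehyde dehydrogenase, at the start of the neighboring gene model Gm29846. All are plus-strand sequence, written 5′ to 3′.
Aldh3b1 5' UTR region, chr19:3923757-3923786: caacgcctcctgCAGCTGttgtttgttgtc
Aldh3b1 5' UTR region, chr19:3923809-3923838: tgCAGCTGtgccgctcggaactCAGCTGac
Aldh3b1 5' UTR region, chr19:3923856-3923885: gaaggcctcccgCAGCTGctgaagcttgtc
Rftn2 3' UTR region at the start of Gm51743, chr1:55201997-55202026: gaaaagacattcCAGCTGcacaaagtggga
2310022A10Rik exon 3 region, chr7:27560406-27560435: accacggcctgcCAGCTGctgcttcgggct

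The Aldh3b1 window of 300 bp held 4 copies of CAGCTG. Of 32851 RefSeq promoter windows of that length, 5355 (16.3%) held at least 1 copy and 9 (0.0274%) held at least 4. The windows of Rftn2 and 2310022A10Rik held 1 copy each. That of Gm51538, of which 262 of 300 bp lay in the downstream region of Tmem38a, held 0. CAGGTG or its reverse complement CACCTG was in 20.2% of all windows and in none of these 4. A match in the letters is a description of the sequence only.

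Recurrence among the 3 ASC MyoD libraries was close to that of all ASC MyoD regions. Of the 270 regions, 130 had a peak in at least 2 libraries (48.1%, 95% Wilson interval 42.3 to 54.1), against 48.4% of all 4101 regions. A peak in all 3 libraries was found for 73 (27.0%, interval 22.1 to 32.6), against 27.0% of all regions, and 140 regions were found in a single library. For 3' UTR regions, 45 of 85 were in at least 2 libraries (52.9%, interval 42.4 to 63.2), and for exon regions 80 of 166 (48.2%, interval 40.7 to 55.7). The small classes gave 5 of 15 for 5' UTRs (33.3%, interval 15.2 to 58.3) and 0 of 4 for downstream regions. These intervals overlap, and they cover counting error of regions only.

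**Figure D1:**
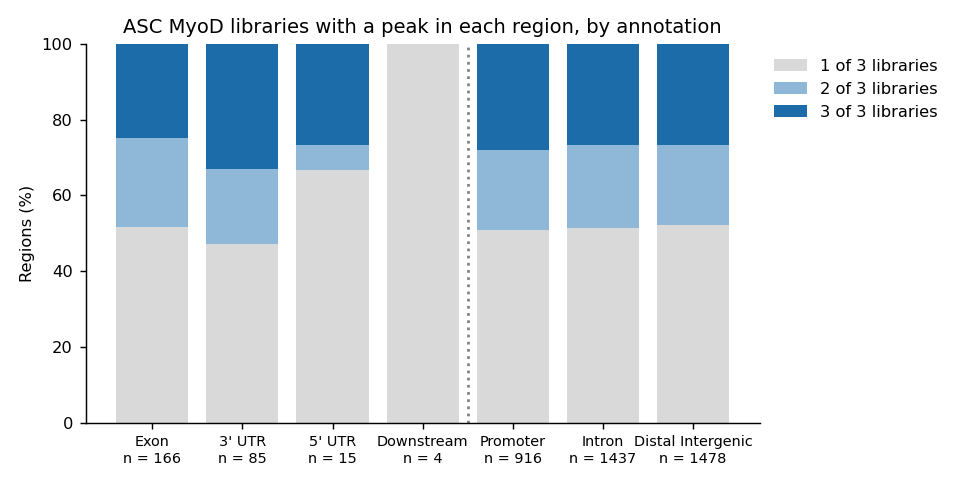
The bars split the regions of each label (x axis, with the number of regions) by how many of the 3 ASC MyoD libraries had a peak there (y axis, percent of regions). Exon and 3' UTR regions were split much like promoter, intron and distal intergenic regions to the right of the dotted line, whereas the 4 downstream regions were each in a single library.

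The comparison was repeated with peaks inside each library. The percent of peaks that overlapped a peak of another ASC MyoD library was 66.7, 68.9 and 77.4 for peaks of the 4 labels in replicates 1, 2 and 3, and 68.3, 72.7 and 71.3 for all other peaks. The mean difference was 0.199 percentage points (exact two-sided sign-flip permutation p = 1, adjusted p = 1 over 4 tests), and its sign was negative in replicates 1 and 2 and positive in replicate 3. Without replicate 3 it was -4.90 percentage points. The median width of the peaks was 870.5, 858 and 806 bp, against 864.5, 807 and 773 bp for other peaks. Exonic and untranslated peaks were thus wider in each of the 3 libraries, by 30 bp on average (exact sign-flip permutation p = 0.25, the smallest possible with 3 libraries, adjusted p = 0.333). A wider peak can reach an exon that a narrower peak at the same place misses, so the label itself may depend on width. The test cannot tell these apart.

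The scores of the regions had a median near that of all ASC MyoD regions and a lower maximum. The median over the 270 regions of the mean score was 68.5, against 67.4 over all regions, and the highest was 338 against 645. The median was 57.7 for regions in 1 library, 73.2 for those in 2 and 101 for those in 3. Where all 3 libraries had a peak, the peak midpoints lay within a median range of 103.5 bp of each other, and within 200 bp in 63 of 73 regions (86.3%, against 88.3% of all such regions).

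Position within the transcript could be read from the exon labels. A label names an exon, but with a median width of 859 bp the exon regions may extend beyond it. Of the 166 exon regions, 138 lay between the first and the last exon and 28 in the last exon. Exon 2 held 20 and exon 3 held 25. Only 1 was in exon 1, in a transcript with a single exon, and the lists give the label promoter to peaks within 3 kb of a start. The transcripts had a median of 15 exons (1 to 87), and the median exon number was 6. With the exon number taken as a percent of the exons of the transcript, 48 of 165 regions (29.1%) fell above 80% and 19 (11.5%) at or below 20%. This scale is uneven by construction. A last exon always falls in the top bin, and exon 1 is mostly lost to the promoter label. In transcripts with few exons the later exons cannot reach the lowest bin. The percents were not compared with those of all exons.

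**Figure D2:**
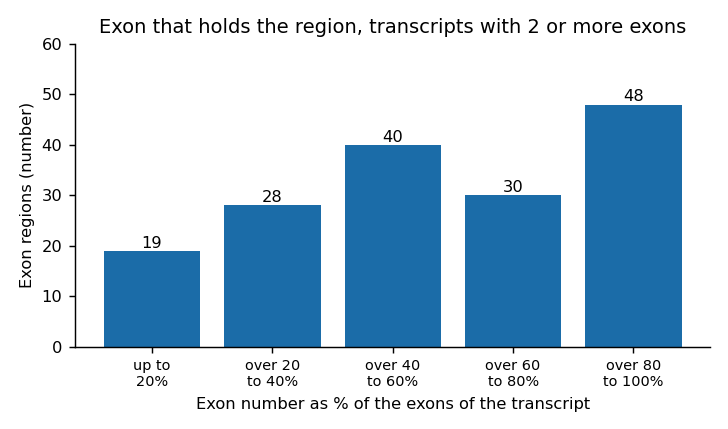
Bars give the number of exon regions (y axis) by the exon named in their label, as a percent of the exons of that transcript (x axis, 165 regions in transcripts with at least 2 exons). The highest bar, 48 regions, is the last bin and the lowest, 19 regions, is the first.

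The regions were given to 257 distinct genes. RefSeq matched 264 of the 270, of which 242 were in protein-coding and 19 in long noncoding RNA (lncRNA) genes, and 257 overlapped the span of their gene. The 7 that did not were exon regions of Acvr1 and Gm26608, 3' UTR regions of Rab22a and Tmem245, and downstream regions of St3gal5, Tmem38a and Gm26535. No region overlapped a RefSeq miRNA hairpin. The gene name is uncertain in places. In 4 exon regions the transcript of the label belonged to another gene than the one named (Platr32, Gm17057 and both regions of Galnt2l). Galnt2l was named for 22 ASC MyoD regions spread over 3.90 Mb of chromosome 8.

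Megf10 had the highest mean score and the most regions, 3. It encodes a transmembrane receptor with EGF repeats that is expressed in muscle stem cells. In exon 5 of 25 (chr18:57211918-57213003, ENSMUSG00000024593) the scores were 323, 382 and 308 in replicates 1, 2 and 3 (mean 338 ± 39.3, SD, n = 3). In exon 10 (chr18:57258682-57260124) they were 246, 144 and 116. Both exons therefore had peaks in every ASC MyoD library, whereas the region in the 5' UTR (chr18:57179941-57180769) had 1 peak, in replicate 1, with a score of 76.3. A region in intron 1 of the gene was likewise in a single ASC MyoD library, with a score of 56.2. That region also had a peak in ASC MyoG replicate 2.

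Behind Megf10 came an lncRNA and an enzyme gene. Cerox1, an lncRNA named as a regulator of oxidative phosphorylation, had scores of 288, 296 and 299 at chr17:25574866-25576325 (mean 294 ± 5.66, SD, n = 3). Its label was promoter (2 to 3 kb) in replicates 1 and 2 and exon 2 of 2 in replicate 3, so the class rested on a single library, whose score was the highest by a small margin. The Aldh3b1 5' UTR region (chr19:3923193-3924483), whose sequences are printed above, had scores of 402, 220 and 253 (mean 292 ± 97.3). Aldh3b1 had the highest score of a single library among the named regions, and its other libraries were lower by more than 100. Another lncRNA, 2310015A10Rik, had a region in exon 3 of 3 (chr12:80122902-80124882) with scores of 152, 163 and 168.

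**Figure D3:**
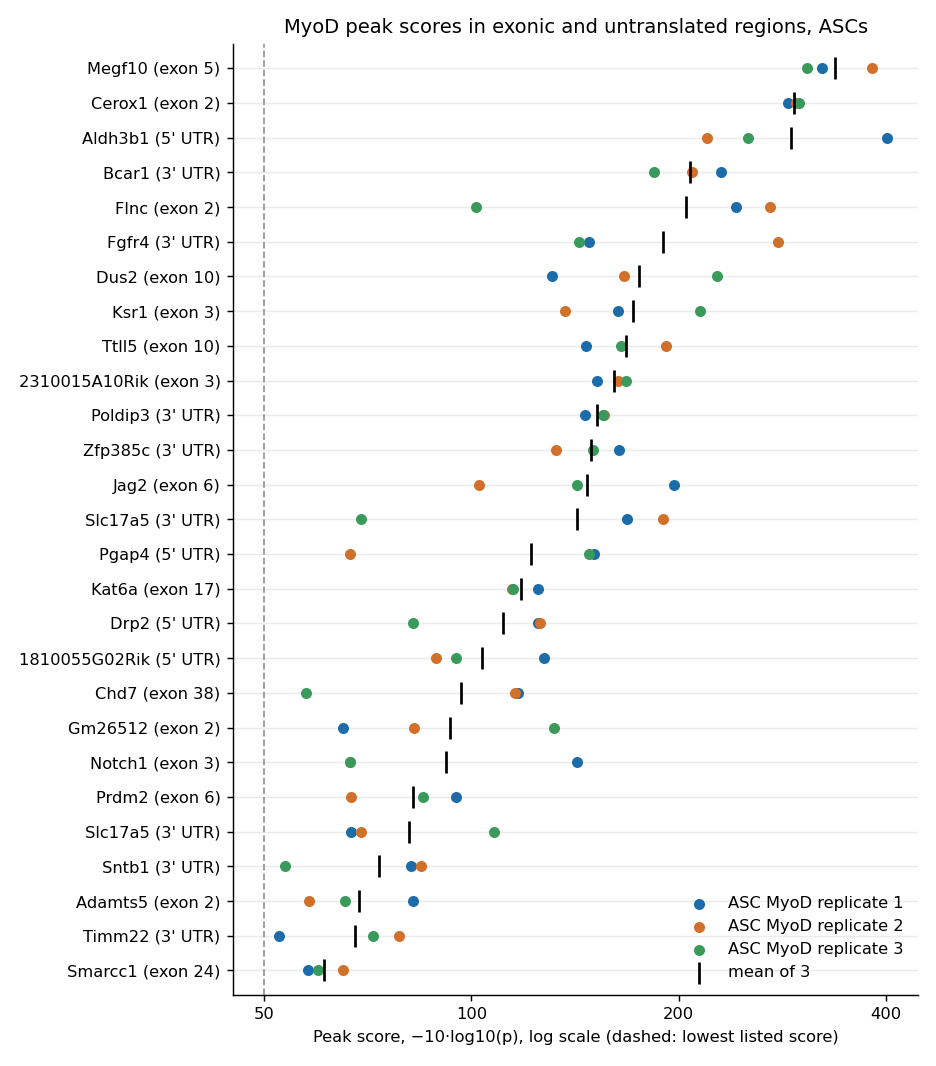
Points give the peak score in each of the 3 ASC MyoD libraries (x axis, minus 10 times log10 of p, log scale) for the regions found in all 3 that were named for rank, label or gene list (y axis), and the black tick is the mean. Scores of Megf10, Cerox1 and Aldh3b1 lie farthest right. Cerox1 and Poldip3 have tightly grouped libraries, and Flnc and the higher-scoring Slc17a5 region have libraries far apart.

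Genes of growth factor, Notch, Wnt and TGF-beta signaling were the list with the most members, 8 of the 270 regions (2.96%), beside 87 of all 4101 (2.12%). They were Fgfr4, Insr, Acvr1, Bmper, Smad7, Notch1, Jag1 and Jag2, and 4 of them were in at least 2 libraries, beside 31 of the 87. Fgfr4 encodes a fibroblast growth factor receptor of the muscle lineage. Its 3' UTR (chr13:55168694-55169828, ENSMUSG00000005320) had scores of 148, 279 and 144 (mean 190 ± 76.8, SD, n = 3). A further MyoD region given to Fgfr4, 1293 bp beyond it and labelled distal intergenic, had scores of 329, 219 and 261. The 3' end of this gene was thus flanked by a pair of regions, each present in all 3 libraries, and replicate 2 was the highest at one and the lowest at the other.

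Among the Notch genes, a receptor and both Jagged ligands were listed. Notch1, a receptor that keeps muscle stem cells from differentiating, had scores of 142, 66.6 and 66.5 in exon 3 of 34 (chr2:26484942-26485960), and a region in intron 2, 1351 bp away, had scores of 96.6, 126 and 53.1. Jag2, a Notch ligand, had scores of 197, 102 and 142 in exon 6 of 26 (chr12:112916438-112917713), where replicate 3 carried the label promoter. Jag1, the related ligand, had 1 peak in exon 4 of 26, in replicate 2, with a score of 77.6. Insr, the insulin receptor, had scores of 58.9 and 50.4 in replicates 1 and 2 and no peak in replicate 3. The BMP and TGF-beta genes were each in a single library. Acvr1, a BMP receptor, had 82.7, Bmper, a BMP-binding protein, 59.2, and Smad7, an inhibitor of the pathway, 50.1. The Acvr1 region, though labelled exon, did not overlap the RefSeq span of that gene.

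Chromatin regulators accounted for 7 regions in 6 genes (2.59%), beside 44 of all regions (1.07%). Of the 7, 5 were in at least 2 libraries, beside 27 of the 44 and 48.4% of all 4101 regions. Kat6a, a histone acetyltransferase, had scores of 125, 115 and 115 in its last exon (chr8:22938850-22939944). Chd7, a chromatin remodeler, had 117, 116 and 57.4 in its last exon and a second region, in exon 24, with a single peak of 69.3 in replicate 1. For Chd7 replicate 3 was the lowest by far, while the Kat6a libraries were close together. Prdm2, a histone methyltransferase, had 95.04, 66.8 and 85.2, and Smarcc1, a subunit of SWI/SNF remodelers, 57.9, 65.2 and 59.9. Dnmt3c, a DNA methyltransferase, had 1 peak with a score of 62.1.

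The 2 muscle structure lists held 8 regions, of which 5 were in a single library, beside 140 of the 270. The sarcomere and muscle cytoskeleton list had 5 regions (1.85%, beside 1.15% of all regions). Flnc, the muscle filamin that cross-links actin at the Z-disc, had scores of 242, 272 and 101 in exon 2 of 48 (chr6:29438483-29440491). A promoter region of Flnc 1820 bp away had 76.4, 88.1 and 101, so that the exon region had the higher score in each library, by 1 or less in replicate 3. Capn2, a calcium-activated protease rather than a structural protein, had 75.6 and 61.3 in replicates 2 and 3. Myom2, Nebl and Nrap, proteins of the sarcomere, each had a single peak, with scores of 55.0, 53.9 and 50.0. The dystrophin and excitation-contraction list had 3 regions (1.11%, beside 1.22% of all), of which Sntb1, a syntrophin, was in all 3 libraries in its 3' UTR, with 81.7, 84.6 and 53.5. Dag1 (dystroglycan) and Atp2a3 (a calcium pump) had a single peak each, of 50.3 and 51.8.

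Of the list of myogenic regulators, which had 35 MyoD regions in all, 1 region was exonic or untranslated (0.370%, beside 0.853% of all regions). It lay in the 5' UTR of Eya1, a transcriptional coactivator of muscle progenitors, with 1 peak of 70.5 in replicate 2. Fusion and cell adhesion genes had 29 MyoD regions (0.707% of all) and 0 here. The lists of AP-1, Runx and Tead factors and of lamins had 18 (0.439%) and 0 each. The multi-copy gene list had 20 (0.488%) and 0, and histone genes had none in either set. A count of 0 of 270 allows a share of up to 1.11%, which is above the share of each of these lists among all regions.

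Extracellular matrix genes had 6 regions (2.22%, beside 1.58% of all). Adamts5, an aggrecan-cleaving protease, was in all 3 libraries in exon 2, with 82.4, 58.0 and 65.5. Lama5, a laminin chain, and Itgb6, an integrin subunit, were in replicates 1 and 3, with 67.4 and 77.3, and with 55.8 and 57.2. Adamts14, Adamtsl2 and Col17a1 had a single peak each, of 93.1, 58.3 and 50.6. The cell cycle list had 4 regions (1.48%, beside 1.07%): Pola2, a subunit of DNA polymerase alpha, in replicates 1 and 2 (63.7 and 68.8), and Mcm2, E2f8 and Cdk18 with 1 peak each. Mitochondrial protein families had 3 (1.11%, beside 0.805%), Timm22, Slc25a26 and Coq8a, proteins of import, transport and coenzyme Q synthesis. Of these, Timm22, in its 3' UTR, had 52.6, 78.4 and 71.9.

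Solute carriers had 7 regions (2.59%, beside 1.49%), led by a pair in the 3' UTR of Slc17a5, the lysosomal sialic acid exporter. The regions were 336 bp apart (chr9:78536893-78537769 and chr9:78538106-78539166) and both were in all 3 libraries. Replicates 1, 2 and 3 gave 66.8, 69.0 and 108 at the first and 168, 190 and 69.2 at the other, so the order of the pair changed in replicate 3. The list of Zfp genes had 7 regions (2.59%, beside 1.78%), of which the 3' UTR of Zfp385c had 164, 133 and 150. The small RNA list had 3 regions (1.11%, beside 188 of all regions, 4.58%), Gm26512, Gm26608 and Gm26535. These matched by symbol only, and RefSeq gives all 3 as lncRNA genes.

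The 3' UTR regions in all 3 libraries numbered 28. Bcar1, the focal adhesion scaffold p130Cas, had the highest mean score, with 231, 209 and 184 at chr8:111710569-111711925, followed by Fgfr4. Poldip3, an RNA-binding protein, had 146, 156 and 155. Further examples, picked after their values were seen, were Cux1, a homeobox factor (193, 73.2 and 246), Rbm24, a muscle RNA-binding protein (118, 202 and 139), and Foxo4, a forkhead factor (68.2, 86.2 and 55.5). The libraries of Poldip3 lay within 10 of each other, whereas those of Cux1 lay more than 100 apart. In the 5' UTR class, Drp2, a relative of dystrophin, had 125, 126 and 82.3, Pgap4, an enzyme of GPI anchors, 151, 66.7 and 148, and 1810055G02Rik 128, 88.8 and 94.98. The 4 downstream regions, at Jmjd4, Tmem38a, St3gal5 and Gm26535, had a single peak each, with scores of 53.0 to 64.2.

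Among the remaining regions of highest rank, Dus2, which modifies tRNA, had 131, 167 and 227 in exon 10 (chr8:106043763-106044958). Ksr1, a scaffold of the Raf-MEK-ERK cascade, had 164, 137 and 215 in exon 3 (chr11:79047001-79048079). Ttll5, a tubulin-modifying enzyme, had 147, 192 and 165 in exon 10 (chr12:85869284-85870296). The highest library was replicate 3 for Dus2 and Ksr1 and replicate 2 for Ttll5.

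Label boundaries mattered for a few regions. In 11 of the 270 regions the peaks carried different labels, between libraries or, at 2310022A10Rik, between a pair of peaks of replicate 3. Examples were Cerox1, Jag2, Garnl3, Ppp2r5c and Dus2, and in 6 of the 11 the difference was between an exon and an adjoining intron. Another 12 regions lay just outside the rule, with a peak of the 4 labels in 1 or more libraries but a higher one labelled otherwise. Itga7, the laminin-binding integrin of muscle, was the strongest of these: its peaks scored 262 as exon 2 in replicate 1, and 163 and 335 as intron 1 in replicates 2 and 3. Mb (myoglobin) had 66.0 as 3' UTR in replicate 2 and 158 as distal intergenic in replicate 3. Garnl3, just inside, had 157 as exon 6 in replicate 1, and 77.0 and 135 as intron 5 in replicates 2 and 3.

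Genes with exonic or untranslated regions were also examined for further MyoD regions. Of the 270 regions, 105 (38.9%, interval 33.3 to 44.8) were in a gene given at least 1 other ASC MyoD region, against 46.1% of all regions. This percent differed between the other labels, with 58.1 for intron, 44.3 for distal intergenic and 32.1 for promoter regions. Another ASC MyoD region lay within 5 kb of 33 regions (12.2%, interval 8.84 to 16.7), against 10.6% of all. Besides Megf10, 11 genes had a pair of the 270 regions, namely Pkhd1, Frmpd1, Dop1b, Chd7, Slc17a5, St3gal5, Galnt2l, Acsl1, Aopep, Dmbt1 and Zbtb20. Frmpd1 had 155, 120 and 143 in exon 10. Its other region, 3403 bp away, had 109 in replicate 1, labelled exon 14, and 68.5 in replicate 3, labelled intron 14.

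Few of the regions had a peak in the other 9 libraries. This was the case for 8 of 270 (2.96%, interval 1.51 to 5.74), against 2.90% of all ASC MyoD regions. For QSC MyoD it was 3 (1.11%, against 0.463%), for ASC MyoG 6 (2.22%, against 2.46%) and for QSC MyoG 1 (0.370%, against 0.293%). The lists of these groups were shorter, with 139 to 174, 605 to 916 and 120 to 167 peaks against 2262 to 2652 in ASC MyoD, and whether this reflects depth was not tested. Of the 73 regions in all 3 ASC MyoD libraries, 69 lacked a peak elsewhere (94.5%, interval 86.7 to 97.8), against 93.2% of the 1107 such regions of any label. With scores of at least 80 the percent of regions with a peak in the other 9 libraries was 1.87, and among regions in at least 2 libraries it was 4.62.

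**Figure D4:**
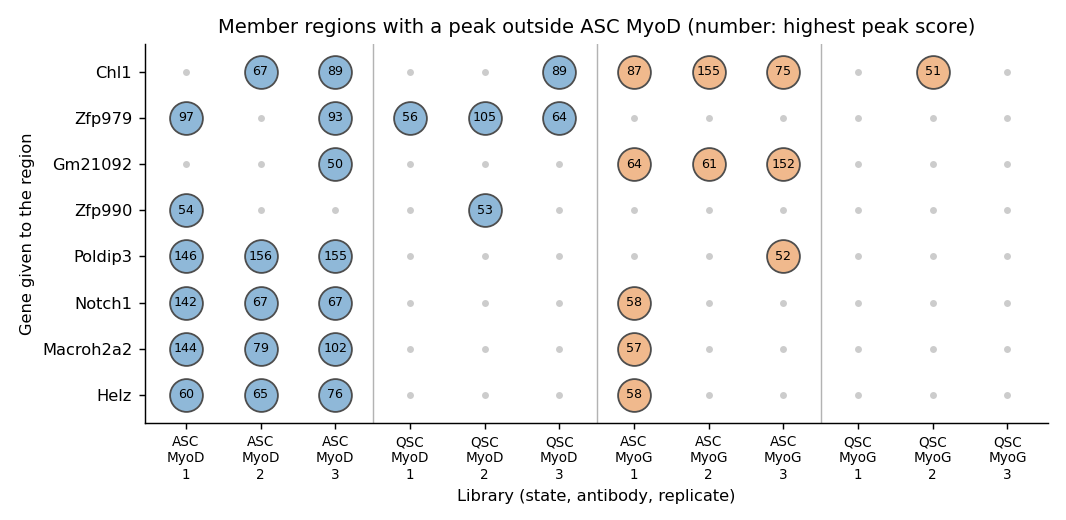
Each row is a region with a peak outside ASC MyoD, each column a library, and circles (blue for MyoD, orange for MyoG) hold the highest peak score there, with small dots for no peak. Poldip3, Notch1, Macroh2a2 and Helz have peaks in all 3 ASC MyoD libraries and in 1 ASC MyoG library, whereas Chl1, Zfp979, Gm21092 and Zfp990 lack a peak in at least 1 ASC MyoD library.

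The 8 regions were of different kinds. Notch1, Macroh2a2 (a macroH2A histone variant) and Helz (an RNA helicase) had an ASC MyoG peak in replicate 1, with scores of 58.4, 56.5 and 58.2, and Poldip3 one in replicate 3, with 52.2. In each of these the MyoD scores in ASCs were higher in every library. Chl1, a neural adhesion molecule, had no peak in ASC MyoD replicate 1 and 66.6 and 89.2 in the others, but 86.6, 155 and 75.0 in ASC MyoG, 88.7 in QSC MyoD replicate 3 and 50.8 in QSC MyoG replicate 2. It was thus found with both antibodies and in both states. Gm21092, with 50.5 in a single ASC MyoD library, had peaks in all 3 ASC MyoG libraries. The Zfp979 5' UTR region had 97.3 and 93.1 in ASC MyoD replicates 1 and 3 and a peak in every QSC MyoD library, with highest scores of 56.1, 105 and 63.6, and Zfp990 had 54.3 and, in QSC MyoD, 52.9. The Zfp979 and Gm21092 regions were 6436 and 3958 bp wide, against a median of 872.5 bp for the 270 regions.

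The share of peaks with these labels was then compared between groups, to ask whether the gene parts bound differ by state or factor. In ASC MyoD it was 6.79, 6.68 and 6.36% in replicates 1, 2 and 3 (180, 151 and 146 peaks; mean 6.61 ± 0.222%, SD, n = 3). In QSC MyoD it was 8.77, 11.5 and 8.62% (15, 16 and 15 peaks; mean 9.63 ± 1.63%). The ranges did not overlap, and the difference, ASC minus QSC, was -3.03 percentage points (exact two-sided permutation p = 0.1, the smallest that 3 libraries against 3 allow, adjusted p = 0.2). Of the QSC MyoD peaks with these labels, 8 of 15, 11 of 16 and 7 of 15 were given to Zfp genes, against 4, 2 and 2 of the ASC MyoD peaks. An alternative chosen after seeing the data removed peaks given to Zfp, Zbtb, Zscan and related zinc-finger symbols. It also removed those given to a numbered series of predicted genes with Gm symbols. Without these peaks the means were 6.58 ± 0.201% and 5.18 ± 0.533% and the sign reversed, to 1.40 percentage points (exact permutation p = 0.1). The removal affected peaks of any label. It left 143 of 171, 103 of 139 and 138 of 174 QSC MyoD peaks in replicates 1, 2 and 3. In ASC MyoD it left 2608 of 2652, 2227 of 2262 and 2251 of 2296. With scores of at least 80, and no such removal, the difference was -13.1 percentage points (exact permutation p = 0.1).

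The 5' UTR label showed the largest gap. It held 0.332 ± 0.0204% of peaks in ASC MyoD and 2.89 ± 0.0280% in QSC MyoD (SD, n = 3). The QSC peaks of this label were given to Zfp985 (5 peaks), Zfp979 and Gm20707 (3 each), and Fndc3c1, Katnal1 and Taf12 (1 each), so that 8 of the 14 were at genes with a Zfp name. No ASC MyoG peak had the label. The exon label held 3.93 ± 0.276% in ASC MyoD and 3.80 ± 1.36% in QSC MyoD, and the 3' UTR label 2.29 ± 0.0716% and 2.70 ± 0.905%, with overlapping ranges in both.

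For MyoG in ASCs the share was 4.91, 3.31 and 3.44% (45, 20 and 22 peaks; mean 3.89 ± 0.891%), below each ASC MyoD library. MyoD minus MyoG was 2.72 percentage points (exact permutation p = 0.1, adjusted p = 0.2), and 2.68 without peaks given to the same zinc-finger and Gm symbols. With scores of at least 80 it was 3.52 percentage points (exact permutation p = 0.2). Median scores of the ASC MyoG lists, 56.5, 58.3 and 58.3, were also below this cut. QSC MyoG libraries held 3.33, 5.56 and 7.78% (4, 9 and 13 peaks), a range that includes the ASC MyoD values. The comparisons with QSC MyoD and ASC MyoG share the same ASC MyoD libraries.

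**Figure D5:**
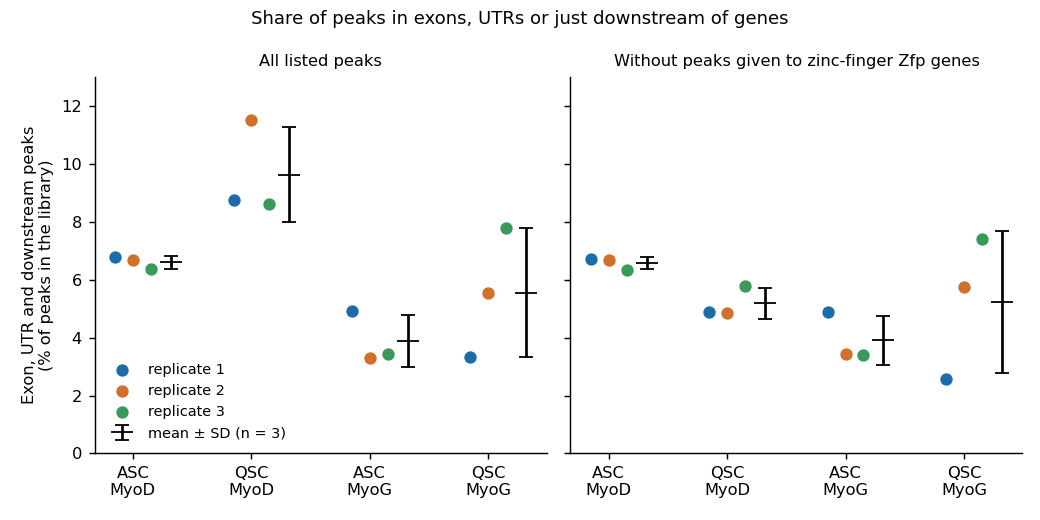
Points give the percent of peaks in each library labelled exon, UTR or downstream (y axis) in the 4 groups (x axis), and the black bar is the mean ± SD (n = 3). With all peaks (left) the QSC MyoD libraries, at 8.62 to 11.5%, lie above ASC MyoD. Without peaks given to Zfp and related zinc-finger symbols and a series of Gm symbols (right), at 4.85 to 5.80%, they lie below.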

How the data were processed

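Peak lists of 12 ChIP-seq libraries were used. The 2 input samples were not analysed here. The submitters' processing notes name BWA 0.7.5, MACS, deepTools 3.5.0 and the mm10 build. The MACS version, the annotation tool, the use of input and any peak filter are not given in the sources used here. Peaks were called by the authors in each library separately. The deposited score is minus 10 times log10 of the p-value, a −log10 scale with a lowest value of 50.0 (a p-value of 1e-05), and the deposited starts, ends and lengths are other values, positions in bp, printed as given. Lists hold no read counts, so depth is unknown.

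Peaks were merged at 1 bp or more of overlap with Python 3.11.15 (pandas 2.3.3, numpy 2.4.6, scipy 1.17.1) and drawn with matplotlib 3.10.9. The steps were tested on simulated lists. Groups came from sample titles. Shares of peaks were compared over libraries by exact permutation tests, and within libraries by exact sign-flip tests, with Benjamini-Hochberg adjustment over 4 tests. Intervals are 95% Wilson intervals. Regions named were the 10 of highest mean within-list score rank, the 4 leading regions of each label, those with peaks in other libraries, those in at least 2 libraries on any of 17 gene lists (up to 6 a list), genes with several regions (up to 8) and regions with mixed labels (up to 6), with exceptions stated and further list members given for completeness. The regions and lists were chosen with earlier results of these data known. For each replicate number, the departure of a library from the mean of its group was taken for the percent of peaks on each of 21 chromosomes, and these departures correlated between groups at -0.0622, -0.0946 and 0.113 (ASC and QSC MyoD) and at 0.487, 0.0490 and -0.0690 (MyoD and MyoG in ASCs), so replicate numbers were not taken as pairs. Alternatives were a score of at least 80, an overlap of 50% and gaps of up to 500 bp. Others were different label rules, chromosomes 1 to 19 and X, and fewer libraries. A last one, chosen after seeing the data, removed peaks given to Zfp and related zinc-finger symbols and to a series of Gm symbols. Motif and GC comparisons of peak centres were not run, since no genome was used here. A region and a gene list are not reported here.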

Additional observations from a re-analysis of the deposited data

How the results depend on the processing

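The 270 regions became 107 with scores of at least 80, 130 when a peak in at least 2 libraries was required and 73 when all 3 were, each a subset by construction. Leaving out a library gave 211 to 239. The percent found in at least 2 libraries was 54.2 with scores of at least 80, and 37.2 to 45.7 with a library left out, when a region had to be in both remaining libraries. The percent with a peak in the other 9 libraries was 2.93 to 3.79 with a library left out, 1.87 with scores of at least 80 and 4.62 among regions in at least 2 libraries.

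The ASC minus QSC difference in MyoD peak share changed sign, to 1.40 percentage points without peaks given to Zfp and related zinc-finger symbols and a series of Gm symbols. The removed peaks were a larger share of the QSC MyoD lists than of the ASC MyoD lists, and the QSC MyoD lists hold few peaks in all. Leaving out libraries gave -3.53 to -2.09 percentage points for this difference, 2.43 to 3.23 for MyoD minus MyoG, 19.5 to 42 bp for width and -4.90 to 4.29 for the replicated share, the negative value being without ASC MyoD replicate 3. The cause of these changes was not tested.

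With the replicate number as a block the differences were the same in size, -3.03 and 2.72 percentage points, all 3 within-number differences had the same sign in each (-1.98, -4.84 and -2.26, and 1.87, 3.37 and 2.92), and the exact sign-flip permutation p was 0.25, the smallest possible.

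Of the 60 named regions, 37 changed their number of libraries with scores of at least 80, and 21 lost every library. Merging gaps of up to 500 bp changed 2 and requiring 50% overlap changed 1. No design here could pass a threshold of 0.05. The comparisons of CAGCTG at peak centres, CAGCTG against flanks and GC content, with their alternatives, were not run, since no genome was used here. Unknown depth limits any reading of a missing peak.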
